A study of Mus musculus with 20 samples.

Results

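The genes described here are the amino acid transporters of epididymal white adipose tissue (eWAT), the visceral fat pad beside the mouse epididymis. They were taken by symbol as every row of the expression table named Slc1a, Slc3a, Slc6a, Slc7a, Slc36a, Slc38a or Slc43a followed by a number. The rule found 35 genes of the 14776 in the table, against 67 matching symbols in the GENCODE annotation of the same mouse genome build. Every gene of the table was above 0 in all 20 mice, so a transporter silent in any mouse could not be among the 35. The rule also took Slc7a6os, which shares only its name with its neighbour Slc7a6 and is not a transporter, and Slc43a3, which is known to carry nucleobases.

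The study compared 3 groups of male C57BL/6J mice that were 6 weeks old at the start. NC mice (6 libraries) ate normal chow. HFD mice (7 libraries) ate a high-fat diet with 60% of its energy from fat for 14 weeks, then stayed on that diet for 6 weeks with saline by gavage. SZ-A mice (7 libraries) ate the same diet throughout and received Ramulus Mori (Sangzhi) alkaloids, an extract of mulberry twig, by gavage at 400 mg/kg per day during those last 6 weeks. All mice were fasted overnight before the tissue was taken. The labels number the libraries of a group without naming animals, so each is taken as 1 mouse and p-values measure the spread between these libraries.

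Mammalian cells cannot make essential amino acids, and charged or polar amino acids do not cross membranes unaided, so their supply rests on carriers. The light chains of the Slc7 family reach the cell surface bound to a heavy chain such as Slc3a2 and mostly exchange one amino acid for another. Slc1 and Slc38 carriers use the sodium gradient, and Slc6 carriers also take up taurine, creatine and other non-protein compounds. Slc43 carriers let large neutral amino acids pass by facilitated diffusion, and some Slc36 carriers, such as Slc36a1, move small amino acids with protons. Some members sit on lysosomes, where amino acids released from digested protein leave and are sensed by the kinase complex mTORC1. Slc7a10 and Slc36a2 are known as surface proteins of adipocytes.

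Promoters are shown for carriers known from lysosomal or endosomal membranes, because all 4 were higher in HFD than in NC mice. They are also shown for Slc7a7 and Slc7a11, light chains whose levels behaved differently. This grouping was made after the values were seen. The sequences are those of RefSeq on GRCm38.p6, from 250 bases before to 50 bases after a transcription start, written along the gene's strand. In the first 4, capitals mark the E-box CACGTG, the core of the element bound by TFEB and related factors in many lysosomal genes. The windows are chr11:55204090-55204389 (plus strand) for Slc36a1, chr9:15709488-15709787 (plus) for Slc36a4, chr8:95853442-95853741 (minus) for Slc38a7 and chr13:112660516-112660815 (plus) for Slc38a9.
Slc36a1: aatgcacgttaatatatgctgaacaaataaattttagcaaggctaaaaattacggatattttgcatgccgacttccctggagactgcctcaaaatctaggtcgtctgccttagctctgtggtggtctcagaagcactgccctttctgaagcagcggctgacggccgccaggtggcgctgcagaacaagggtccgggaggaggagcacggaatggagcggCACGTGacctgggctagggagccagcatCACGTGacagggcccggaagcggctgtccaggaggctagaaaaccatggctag
Slc36a4: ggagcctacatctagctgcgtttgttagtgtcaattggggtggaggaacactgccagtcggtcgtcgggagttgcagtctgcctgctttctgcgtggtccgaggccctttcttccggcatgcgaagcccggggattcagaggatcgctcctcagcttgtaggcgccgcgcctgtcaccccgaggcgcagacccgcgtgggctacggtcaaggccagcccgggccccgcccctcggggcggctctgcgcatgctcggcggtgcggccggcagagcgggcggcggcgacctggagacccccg
Slc38a7: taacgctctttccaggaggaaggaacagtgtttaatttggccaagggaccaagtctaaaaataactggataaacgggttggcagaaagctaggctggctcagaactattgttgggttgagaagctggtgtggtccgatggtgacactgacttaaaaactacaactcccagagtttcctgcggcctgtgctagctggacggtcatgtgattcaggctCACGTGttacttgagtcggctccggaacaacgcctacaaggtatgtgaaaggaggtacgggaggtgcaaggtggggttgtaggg
Slc38a9: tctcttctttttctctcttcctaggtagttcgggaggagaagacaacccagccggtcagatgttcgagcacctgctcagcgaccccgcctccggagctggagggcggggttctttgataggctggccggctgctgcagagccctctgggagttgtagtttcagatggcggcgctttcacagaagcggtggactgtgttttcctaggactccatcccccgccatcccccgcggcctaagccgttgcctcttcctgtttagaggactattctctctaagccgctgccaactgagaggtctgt

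Slc36a1 held 2 E-boxes and Slc38a7 held 1, whereas the Slc36a4 and Slc38a9 windows held 0. In the next pair, capitals mark TGATGNAA on either strand, the CARE motif of the amino acid response that is bound by ATF4. The windows are chr14:54417895-54418194 (minus) for Slc7a7 and chr3:50443564-50443863 (minus) for Slc7a11. Slc7a7 has 5 starts in the table, and the one with most CARE matches is shown.
Slc7a7: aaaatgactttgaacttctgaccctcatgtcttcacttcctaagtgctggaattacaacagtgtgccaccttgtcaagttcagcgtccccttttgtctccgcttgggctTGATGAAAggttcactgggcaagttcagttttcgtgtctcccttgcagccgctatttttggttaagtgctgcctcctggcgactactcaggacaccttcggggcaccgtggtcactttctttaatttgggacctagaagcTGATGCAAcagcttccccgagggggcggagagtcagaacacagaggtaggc
Slc7a11: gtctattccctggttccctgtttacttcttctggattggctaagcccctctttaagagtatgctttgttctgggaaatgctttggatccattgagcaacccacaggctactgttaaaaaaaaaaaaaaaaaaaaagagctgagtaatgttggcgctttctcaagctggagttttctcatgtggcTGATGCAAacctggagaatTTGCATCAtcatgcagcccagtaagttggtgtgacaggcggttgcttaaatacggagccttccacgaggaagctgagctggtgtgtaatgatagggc

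Both windows held 2 CARE matches. In all, 25 of the 35 genes matched the promoter table, with 43 windows between them, and 5 motifs were searched on both strands. CARE was found in 4 of the 43 windows (9.3%) and in 3.97% of all 32851 promoters, and the E-box in 3 (6.98%) against 7.15%. The antioxidant response element TGACNNNGC, whose matches can overlap an E-box, was found in 9 (20.9%) against 12.4%. AP-1 (TGANTCA) was found in 6 (14.0%) against 7.81%, and PU.1 (AGGAAGT) in 4 (9.3%) against 9.35%. Windows of a gene can overlap, so a site can be counted more than once, as in Slc7a7 (CARE) and Slc7a6 (antioxidant response element). A match is a run of letters in these windows and not a measured binding site.

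Values are FPKM, fragments scaled to transcript length and library size, so levels of different genes are compared per length. The reads on genes per library came to between 13567666 and 19388620. Before the comparisons, 2 libraries stood apart. NC replicate 6 had a summed FPKM of 619 over 14 adipocyte markers, against a median of 18064 in NC, with Adipoq at 26.6 FPKM. It also had the highest levels of Lcn2 (2431 FPKM) and Adgrg2 (420 FPKM), genes known from the epididymis, and SZ-A replicate 2 was next, with 272 and 103 FPKM. Only 3 of 30 listed epididymis markers were in the table. Every gene of the table was above 0 in all mice, so markers present in only some libraries could not be among them. The third marker, Sult1e1, was low in NC replicate 6, at 0.221 FPKM against 24.7 to 53.5 FPKM in the other NC mice. The share of mitochondrial reads was 3.30% to 8.34% in NC mice and 1.67% to 2.92% in HFD mice, without overlap, and its part in the first comparison was not tested. Results that rest on these mice are given with and without them.

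The mRNA level of the 35 genes spanned from 0.0252 FPKM (Slc6a17 in an HFD mouse) to 586 FPKM (Slc7a5 in NC replicate 6). The median of their means over all mice was 6.59 FPKM, against 5.32 FPKM for all genes. Slc1a5, which takes up glutamine and other neutral amino acids in exchange, had the highest mean (209 FPKM), and 193 genes of the table had a higher one. NC mice averaged 173 ± 79.8 FPKM (SD, n = 6), HFD mice 165 ± 65.2 (n = 7) and SZ-A mice 283 ± 112 (n = 7). Slc3a2, the heavy chain, followed with 90.6 ± 60.7 FPKM in NC, 53.0 ± 5.69 in HFD mice and 52.4 ± 5.76 in SZ-A mice. The next were Slc7a10 and Slc6a6, and among the 35 genes Slc6a6 ranked 13 in NC mice, 2 in HFD mice and 6 in SZ-A mice. Slc7a5 ranked 5 over all mice, but without NC replicate 6 and SZ-A replicate 2 it averaged 3.54 ± 1.52 FPKM in NC (n = 5) and 2.88 ± 1.46 in SZ-A mice (n = 6), beside 3.71 ± 0.443 in HFD mice. The lowest means belonged to Slc6a17, Slc6a7 and Slc6a12.

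**Figure D1:**
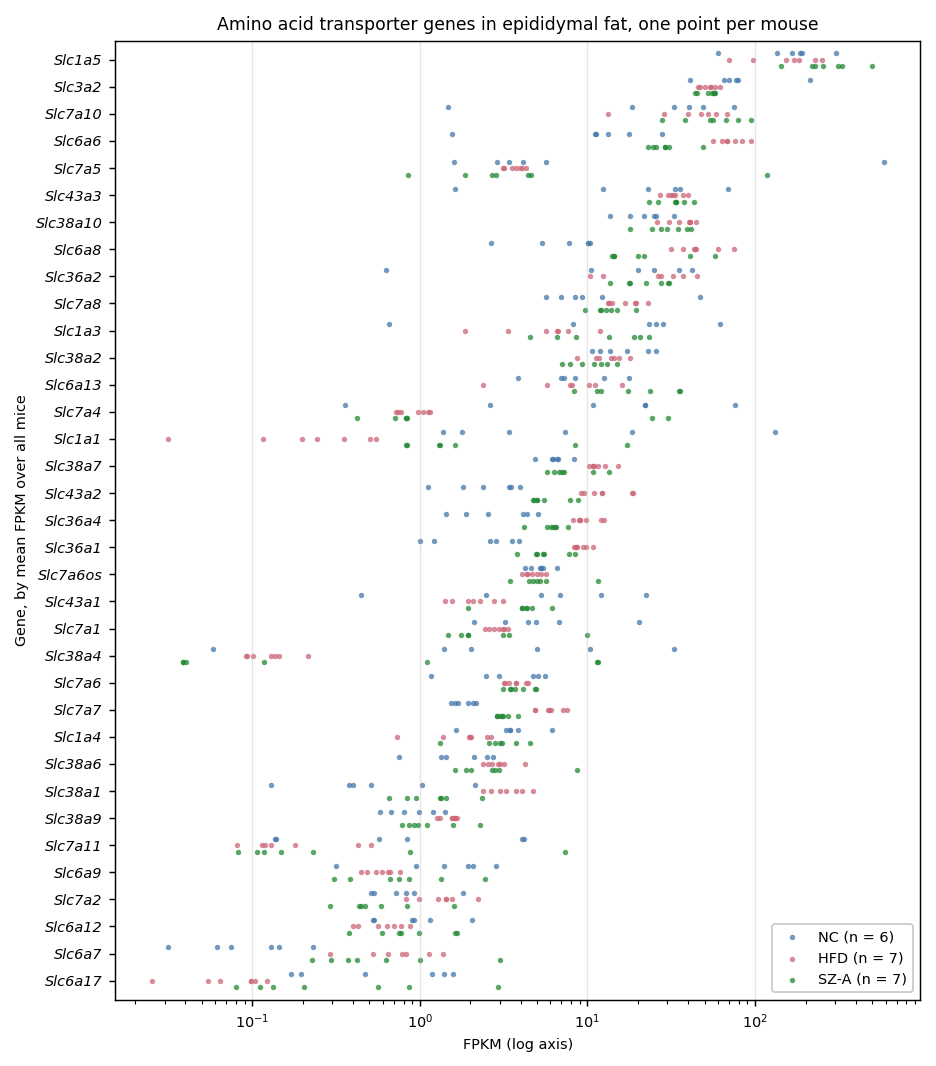
FPKM of all 35 genes in each mouse on a log axis, ordered by the mean over all mice, with NC in blue (n = 6), HFD in red (n = 7) and SZ-A in green (n = 7). Slc1a5 lies highest in mean, HFD points of Slc6a6 and Slc6a8 lie to the right of all NC points, and single NC and SZ-A points of Slc7a5 lie far to the right.

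The first comparison asked how the high-fat diet moved these genes. In HFD mice, 12 of the 35 genes were higher than in NC mice and 6 were lower, and 17 did not pass the test (limma on log2(FPKM + 1), Benjamini-Hochberg adjusted p under 0.05 over all genes). Among all 14706 genes tested, 21% were higher and 20.1% lower. The share of members that rose (34.3%) was above that background, and the share that fell (17.1%) was near it. At the threshold of the study's methods, which adds an absolute log2 fold change above 1.5, 7 members passed (20%) against 7.97% of all genes. Values of the groups did not overlap for 11 members (31.4%) against 20.5% of all genes. The median log2 fold change was 0.10 for the members and -0.04 for all genes. Because the tissue was measured in bulk, more cells of a type cannot be told apart from more RNA per cell.

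With all mice in the fit, the largest log2 rise was in Slc6a6, the taurine transporter (chr6:91684053-91759066, plus strand). Its lowest, median and highest FPKM were 1.55, 12.2 and 27.9 in NC mice, 56.2, 68.4 and 94.2 in HFD mice and 23.0, 28.8 and 49.0 in SZ-A mice. Every HFD mouse was above every NC mouse and every SZ-A mouse. The log2 fold change of HFD against NC was 2.61 (95% interval 1.71 to 3.51, adjusted p = 0.00027), and the mean FPKM was 5.29 times higher. With an epididymis marker score in the fit, as described below, the change was 0.53 and the call was lost (adjusted p = 0.39). Without NC replicate 6, and with no such score, the change was 2.17, below the 2.31 of Slc6a8.

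Slc6a8, the creatine transporter (chrX:73673150-73682502, plus strand), also rose. It measured 2.65, 8.95 and 10.4 FPKM (lowest, median, highest) in NC, 31.4, 43.9 and 74.8 in HFD mice and 14.1, 19.98 and 57.9 in SZ-A mice. HFD and NC mice did not overlap, while SZ-A replicates 5 and 6, at 57.9 and 40.6 FPKM, lay within the HFD range. The log2 fold change was 2.54 (interval 1.94 to 3.13, adjusted p = 9.91e-06). Gatm, which makes the creatine precursor and comes from the list of arginine enzymes, was also higher in HFD mice (log2 fold change 2.16, adjusted p = 3.04e-05), while Gamt of the same list, which completes creatine synthesis, did not pass (-0.86, adjusted p = 0.346).

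Slc43a2, a facilitator for large neutral amino acids such as leucine (chr11:75531694-75577575, plus strand), went from 1.12, 2.88 and 3.97 FPKM in NC to 9.21, 12.2 and 18.6 in HFD mice, with 4.74, 4.997 and 8.81 in SZ-A mice. The 3 groups did not overlap at any pair. Its log2 fold change was 1.94 (interval 1.45 to 2.42, adjusted p = 1.83e-05). A gene on the opposite strand, Gm45606, overlaps it, and no strand-specific counting is stated. The same limit holds for Slc1a1, Slc7a4, Slc6a9 and Slc7a10, each overlapped by a gene on the opposite strand.

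The smallest adjusted p belonged to Slc7a7, a light chain that exchanges cationic for neutral amino acids and that macrophages express (chr14:54369442-54417780, minus strand). Its range was 1.53 to 2.16 FPKM in NC (median 1.82), 4.88 to 7.58 in HFD mice (median 5.87) and 2.88 to 3.84 in SZ-A mice (median 3.08). The groups were fully separated, with SZ-A between the others. The log2 fold change of HFD against NC was 1.30 (interval 1.06 to 1.55, adjusted p = 1.37e-06). Oxa1l overlaps Slc7a7 on the other strand.

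None of the other measured light chains passed this test. Slc7a6, the sister exchanger of Slc7a7, averaged 3.67 ± 1.73 FPKM in NC, 3.71 ± 0.494 in HFD mice and 3.95 ± 0.703 in SZ-A mice. Slc7a10 averaged 36.1 ± 25.2, 44.0 ± 18.5 and 59.5 ± 23.0 FPKM, Slc7a5 averaged 101 ± 238, 3.71 ± 0.443 and 19.2 ± 43.2, and Slc7a8 averaged 14.9 ± 15.8, 17.0 ± 3.72 and 13.5 ± 3.13 FPKM in the same order. Slc7a11, the cystine and glutamate exchanger, averaged 1.66 ± 1.93, 0.222 ± 0.171 and 1.28 ± 2.70 FPKM. Without SZ-A replicate 2 its SZ-A mean was 0.261 ± 0.306 FPKM (n = 6), and without NC replicate 6 its NC mean was 1.15 ± 1.66 FPKM (n = 5). For Slc7a5, Slc7a8 and Slc7a11 the NC SD was larger than the mean, and NC replicate 6 was the highest NC mouse. Without it, Slc7a8, which carries neutral amino acids, was called higher in HFD mice (log2 fold change 0.93, adjusted p = 0.00114). The heavy chain Slc3a2 did not pass with all mice (log2 fold change -0.57, interval -1.17 to 0.03, adjusted p = 0.116) or without NC replicate 6 (-0.29, adjusted p = 0.158). Slc3a1, the heavy chain best known from kidney and gut, was not among the genes analysed here.

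The lysosomal and endosomal carriers, whose promoters are shown above, were all higher in HFD than in NC mice (4 of 4, background 21%). Their median log2 fold change was 1.11. They were grouped after the values were seen, so this count is not a test. Slc36a1, which releases small neutral amino acids from lysosomes with protons, measured 1.0002, 2.72 and 3.91 FPKM in NC, 8.36, 8.67 and 10.8 in HFD mice and 3.80, 5.45 and 8.45 in SZ-A mice. HFD mice were all above NC mice, and SZ-A replicate 6 reached the lower end of the HFD range. Its log2 fold change was 1.60 (interval 1.17 to 2.04, adjusted p = 3.42e-05).

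Slc36a4, of the same family, measured 1.43, 3.34 and 5.08 FPKM in NC, 8.16, 9.03 and 12.6 in HFD mice and 4.20, 6.19 and 7.61 in SZ-A mice. HFD mice overlapped with neither other group, and the log2 fold change was 1.44 (interval 0.98 to 1.89, adjusted p = 0.000135). Slc38a7, a lysosomal glutamine exporter, ranged from 4.83 to 8.36 FPKM in NC and from 10.2 to 15.3 in HFD mice, again without overlap (log2 fold change 0.78, adjusted p = 0.00027). Slc38a9, which senses arginine at the lysosome for mTORC1, moved least (0.39, adjusted p = 0.009) and its groups overlapped.

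Among the sodium-coupled Slc38 carriers of neutral amino acids, 5 of 7 were higher (71.4%, background 21%) and 1 was lower (14.3%, background 20.1%) in HFD mice. Slc38a1, a glutamine carrier of the cell surface, measured 0.129, 0.453 and 2.12 FPKM in NC, 2.37, 3.27 and 4.71 in HFD mice and 0.656, 1.33 and 2.36 in SZ-A mice. The HFD mice were above all others, though the lowest HFD mouse and the highest SZ-A mouse were nearly level. The log2 fold change was 1.39 (interval 0.93 to 1.84, adjusted p = 0.000187). Slc38a10 (0.70, adjusted p = 0.00974) and Slc38a6 (0.54, adjusted p = 0.0229) also rose, while Slc38a2, a glutamine and alanine carrier induced by amino acid shortage, did not pass (-0.29, interval -0.75 to 0.17). Slc6a7, a proline carrier known from brain, was higher too (0.67, adjusted p = 0.000679), but from a very low level, with medians of 0.102 FPKM in NC and 0.779 in HFD mice.

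**Figure D2:**
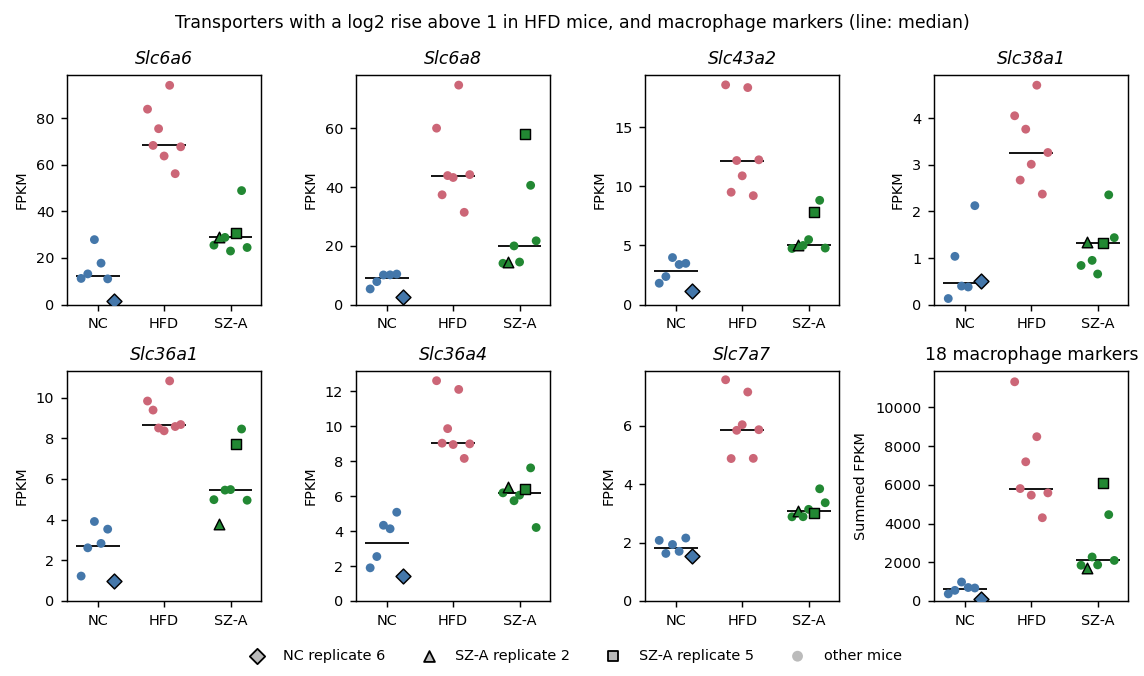
FPKM per mouse in NC, HFD and SZ-A mice for the 7 transporters that rose by more than 1 on the log2 scale in HFD mice, and the summed FPKM of 18 macrophage markers. Lines are medians, and marked symbols are NC replicate 6 and SZ-A replicates 2 and 5. HFD mice lie above NC mice in every panel, and SZ-A medians lie between.

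Macrophage markers moved with these genes. Of 18 markers, 17 were higher in HFD than in NC mice, with a median log2 fold change of 3.39. Their summed level ranged from 103 to 980 FPKM in NC mice, from 4299 to 11322 in HFD mice and from 1712 to 6082 in SZ-A mice. The defining marker Adgre1 (F4/80) ranged from 0.615 to 10.6 FPKM in NC, from 140 to 258 in HFD and from 34.2 to 122 in SZ-A mice. All 12 markers of lipid-associated macrophages were higher too, with a median of 5.51. Mast cell markers also moved, with 4 of 5 higher in HFD mice (median 3.54) and summed levels of 4.27 to 27.6 FPKM in NC mice, 50.5 to 708 in HFD mice and 13.3 to 65.9 in SZ-A mice. Of 10 preadipocyte and fibroblast markers, 7 were higher in HFD mice and 1, Dpp4, was lower (-1.26, adjusted p = 0.000218). Adipocyte markers had summed medians of 18064, 6173 and 9255 FPKM in NC, HFD and SZ-A mice, but of the 14 only Cfd (-4.42) and Retn (-2.71) were called lower in HFD mice and Lep (2.85) was called higher, with a median of -0.28. Their part in the transporter changes was not tested.

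Of the 6 genes that were lower in HFD mice, Slc1a1, Slc7a4 and Slc38a4 fell most and had very uneven values in NC mice. Slc1a1, a carrier of glutamate and cysteine (chr19:28835049-28913960, plus strand), read 18.4, 7.34, 1.80, 3.40, 1.37 and 132 FPKM in NC replicates 1 to 6. In HFD mice it ranged from 0.0316 to 0.545 FPKM (median 0.244), below every NC mouse, and in SZ-A mice from 0.832 to 17.3 (median 1.33). The log2 fold change of HFD against NC was -2.86 (interval -4.46 to -1.26, adjusted p = 0.00774), and -2.09 without NC replicate 6 (adjusted p = 0.00119). The smallest value rested on 4 reads.

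Slc7a4, a relative of the cationic amino acid carriers (chr16:17572018-17583214, minus strand), measured 0.360, 16.4 and 76.3 FPKM (lowest, median, highest) in NC, 0.719, 0.971 and 1.15 in HFD mice and 0.421, 0.829 and 30.3 in SZ-A mice. NC replicate 3 lay below all HFD mice and the other NC mice above them, so the groups overlapped despite a log2 fold change of -2.59 (interval -4.11 to -1.06, adjusted p = 0.0104). With voom on the recovered reads the call was lost (adjusted p = 0.0589). Slc38a4, a carrier best known from liver and placenta, behaved alike, with 0.0584, 3.50 and 32.8 FPKM in NC, 0.0920, 0.130 and 0.214 in HFD mice and 0.0384, 0.118 and 11.6 in SZ-A mice (log2 fold change -2.17, interval -3.46 to -0.88, adjusted p = 0.0108). Both genes were highest in NC replicate 1 of the NC mice, and in SZ-A replicates 2 and 7 of the SZ-A mice.

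Smaller declines in HFD mice were measured for Slc6a17, a vesicular carrier of neutral amino acids (-0.69, adjusted p = 0.00794), Slc1a4, a carrier of alanine, serine and cysteine (-0.65, adjusted p = 0.0278), and Slc6a9, the glycine carrier (-0.62, adjusted p = 0.0218). Slc6a17 was the only one of these whose groups did not overlap, at 0.170 to 1.59 FPKM in NC and 0.0252 to 0.122 in HFD mice. The call of Slc1a4 held in 10 of 13 fits that left out a mouse (adjusted p up to 0.0612), and that of Slc6a9 in 12 of 13 and not with voom (adjusted p = 0.0525).

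Some markers of other tissue layers were also lower in HFD mice. Of 8 listed mesothelial markers 3 were in the table. Krt18 (-5.23, adjusted p = 0.000176) and Krt19 (-3.55, adjusted p = 0.000609) were lower, while Lrrn4 did not pass (0.29, adjusted p = 0.622). Their summed level ranged from 21.6 to 556 FPKM in NC mice, from 4.29 to 17.3 in HFD mice and from 0.494 to 209 in SZ-A mice. Krt18 was highest in NC replicates 1 and 6 (454 and 452 FPKM) and in SZ-A replicates 7 and 2 (168 and 119 FPKM). Of 7 smooth muscle markers 5 were lower, with summed levels of 242 to 1775 FPKM in NC mice, 60.9 to 306 in HFD mice and 148 to 816 in SZ-A mice. These were highest in NC replicates 5 and 2 (1775 and 1490 FPKM) and reached 292 FPKM in NC replicate 1. With a score of the 3 epididymis markers added to the fit of HFD against NC, 6 of the 18 calls held (Slc6a8, Slc43a2, Slc7a7, Slc38a7, Slc38a10 and Slc6a7), 10 were lost and 2 turned direction. Besides Slc6a6, the lost calls included Slc36a1 (0.79, adjusted p = 0.0551), Slc36a4 (0.55, adjusted p = 0.176) and Slc38a1 (0.96, adjusted p = 0.0892). That score itself differed between the groups without overlap, at 3.57 to 6.75 in NC and 1.62 to 2.59 in HFD mice. The fit therefore cannot separate the score from the diet. The part of other tissue in these values was not tested.

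**Figure D3:**
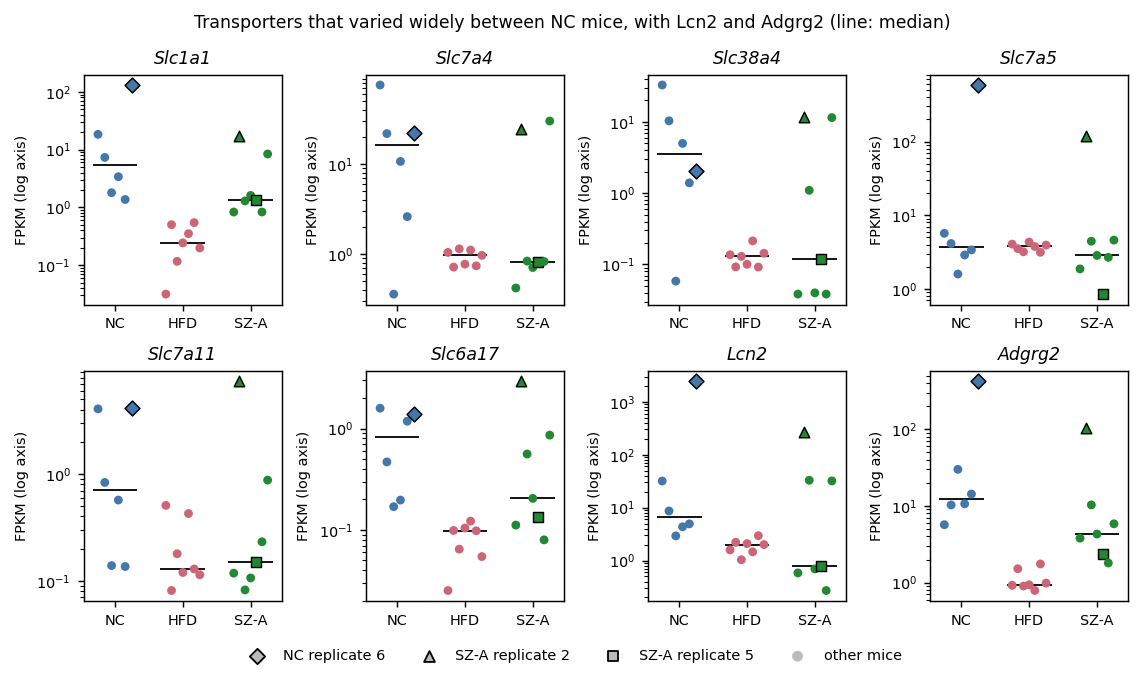
FPKM per mouse on a log axis for 6 transporters that varied widely between NC mice, and for Lcn2 and Adgrg2. Lines are medians. NC replicate 6 (diamond) is the highest NC mouse for Slc1a1, Slc7a5, Slc7a11, Lcn2 and Adgrg2, and SZ-A replicate 2 (triangle) is the highest SZ-A mouse for Slc1a1, Slc7a5, Slc7a11, Slc6a17, Lcn2 and Adgrg2.

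The second comparison asked what SZ-A treatment changed on the high-fat diet. Against HFD mice, 9 of the 35 genes were lower in SZ-A mice and 3 were higher, and 23 did not pass. Over all 14695 genes tested, 13.3% were lower and 9.47% higher, so the members' share of lower calls (25.7%) exceeded the background and their share of higher calls (8.57%) did not. One member passed the study's threshold (2.86%, background 0.864%), and 6 did not overlap between the groups (17.1%, background 6.08%). The median log2 fold change was -0.02 for members and 0.03 for all genes. This comparison shares its HFD mice with the first, and the values of each are given side by side only.

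Slc6a6 fell most among the members, with a log2 fold change of -1.27 in SZ-A against HFD mice (interval -1.61 to -0.93, adjusted p = 0.000314), where the mean FPKM was 0.413 times that of HFD mice. Slc7a7 fell by 0.74 (interval -0.96 to -0.52, adjusted p = 0.000481), Slc38a1 by 0.97 (adjusted p = 0.00114), Slc43a2 by 0.995 (adjusted p = 0.00201) and Slc36a4 by 0.62 (adjusted p = 0.00314) on the log2 scale. In each of these 5 genes the highest SZ-A mouse lay under the lowest HFD mouse, and the calls held in all 14 fits that left out a mouse. Slc36a1 fell by 0.60 (adjusted p = 0.00694) and Slc7a2, an arginine carrier, by 0.53 (adjusted p = 0.0225), with SZ-A replicate 6 inside the HFD range for Slc36a1 and SZ-A replicates 2 and 7 inside it for Slc7a2. SZ-A replicate 6 was the highest SZ-A mouse for Slc6a6, Slc43a2, Slc36a1, Slc36a4, Slc38a1 and Slc7a7.

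The calls of Slc6a8 (-0.99, interval -1.64 to -0.35, adjusted p = 0.0288) and Slc38a7 (-0.51, adjusted p = 0.0338) were less stable when a mouse was left out. The Slc6a8 call held in 9 of 14 fits that left out a mouse, with adjusted p up to 0.0658, and without SZ-A replicate 5 it was larger (-1.21, adjusted p = 0.00305). The Slc38a7 call held in 5 of 14, with adjusted p up to 0.0769. Of the 4 lysosomal and endosomal carriers, 3 were lower (75%, background 13.3%), and Slc38a9 did not pass (-0.21, adjusted p = 0.227). This group was made after the values of the same HFD mice were seen, so the count is not a test. SZ-A replicate 5 had the highest share of mitochondrial reads (11.6%, against 1.67% to 5.11% in the other SZ-A mice) and the highest summed macrophage level of the SZ-A mice. Of the 18 macrophage markers, 16 fell with SZ-A against HFD (median log2 fold change -1.36), as did 10 of 12 markers of lipid-associated macrophages (-1.59), 4 of 5 mast cell markers (-2.51) and 8 of 10 preadipocyte and fibroblast markers (-1.02). Of 14 adipocyte markers Cfd (2.63) and Retn (2.19) were called higher, with a median of 0.92. Their part in the lower transporter levels was not tested.

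Slc1a1, Slc43a1 and Slc6a13 were higher in SZ-A mice. Slc1a1 did not overlap between SZ-A and HFD mice, with a log2 fold change of 1.51 (interval 0.55 to 2.47, adjusted p = 0.0266) and of 1.12 without SZ-A replicate 2 (adjusted p = 0.0177). Its call was lost, with adjusted p up to 0.0533, in the fits without HFD replicate 1, HFD replicate 3 or SZ-A replicate 7. Slc43a1, a facilitator for leucine and other large neutral amino acids, measured 1.42, 2.08 and 3.14 FPKM in HFD mice and 1.95, 4.33 and 6.15 in SZ-A mice (log2 fold change 0.71, interval 0.34 to 1.07, adjusted p = 0.0101). Only SZ-A replicate 2 lay within the HFD range, and without it the change was 0.84 (adjusted p = 0.0015).

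Slc6a13, a carrier of GABA, betaine and taurine, measured 3.88, 7.84 and 17.6 FPKM in NC, 2.39, 8.03 and 16.1 in HFD mice and 8.30, 17.3 and 35.7 in SZ-A mice. The groups overlapped, and the log2 fold change of 1.11 (interval 0.33 to 1.89, adjusted p = 0.0413) held in 5 of 14 fits that left out a mouse. Slc1a3, a glutamate carrier, came close (0.98, interval 0.19 to 1.76, adjusted p = 0.0694) and passed without SZ-A replicate 2 (1.10, adjusted p = 0.0439) or SZ-A replicate 5 (1.18, adjusted p = 0.0211). Without NC replicate 6 it was also lower in HFD than in NC mice (-1.96, adjusted p = 0.00238), as was Slc43a1 (-1.49, adjusted p = 0.00445).

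The surface proteins of adipocytes did not pass in either comparison. Slc7a10 had medians of 36.6, 47.3 and 56.4 FPKM in NC, HFD and SZ-A mice, with log2 fold changes of 0.69 (interval -0.73 to 2.12) for HFD against NC and 0.48 (-0.24 to 1.19) for SZ-A against HFD. Slc36a2 had medians of 22.5, 27.4 and 22.4 FPKM (0.68, interval -0.73 to 2.09, and -0.15, interval -0.79 to 0.49). Without NC replicate 6, the changes of HFD against NC were 0.02 for Slc7a10 (adjusted p = 0.968) and 0.03 for Slc36a2 (adjusted p = 0.964). Both were lowest in NC replicate 6, at 1.46 and 0.632 FPKM, where the adipocyte markers were lowest. Slc1a5, with a log2 fold change of 0.80 for SZ-A against HFD (interval 0.15 to 1.45, adjusted p = 0.0701), did not pass.

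**Figure D4:**
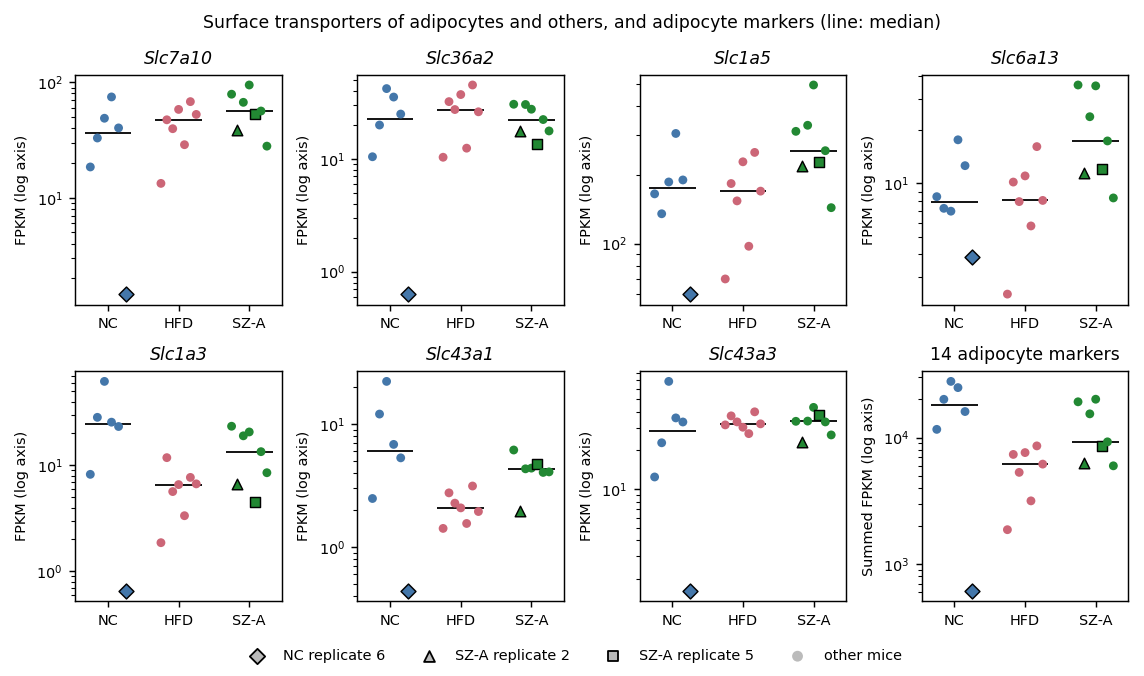
FPKM per mouse on a log axis for Slc7a10, Slc36a2, Slc1a5, Slc6a13, Slc1a3, Slc43a1 and Slc43a3, and the summed FPKM of 14 adipocyte markers. Lines are medians. NC replicate 6 (diamond) is the lowest NC mouse in every panel, and Slc43a1 lies above the HFD mice in all SZ-A mice except SZ-A replicate 2 (triangle).

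The third comparison set SZ-A mice against NC mice. Here 5 members were higher (14.3%, background 4.15% of 14718 genes) and 0 were lower (background 0.455%). At an unadjusted p under 0.05, 1 member, Slc38a2, was lower, and voom also called 0 lower. The 5 higher genes were Slc6a8 (1.55, interval 0.75 to 2.34, adjusted p = 0.0281), Slc36a1 (1.002, interval 0.49 to 1.51, adjusted p = 0.0262), Slc43a2 (0.94, adjusted p = 0.023), Slc36a4 (0.81, adjusted p = 0.0488) and Slc7a7 (0.56, adjusted p = 0.0074). Slc6a8 alone passed the study's threshold (2.86%, background 1.79%), and 3 members did not overlap (8.57%, background 3.57%). Slc7a7 held in all 13 fits that left out a mouse and Slc36a4 in 3, and between 1 and 6 members were called higher over those fits. Slc6a6 averaged 13.8 ± 8.71 FPKM in NC and 30.1 ± 8.77 in SZ-A mice and did not pass (1.34, interval 0.42 to 2.26, adjusted p = 0.0972). With the replicate number as a block, 0 members were called.

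**Figure D5:**
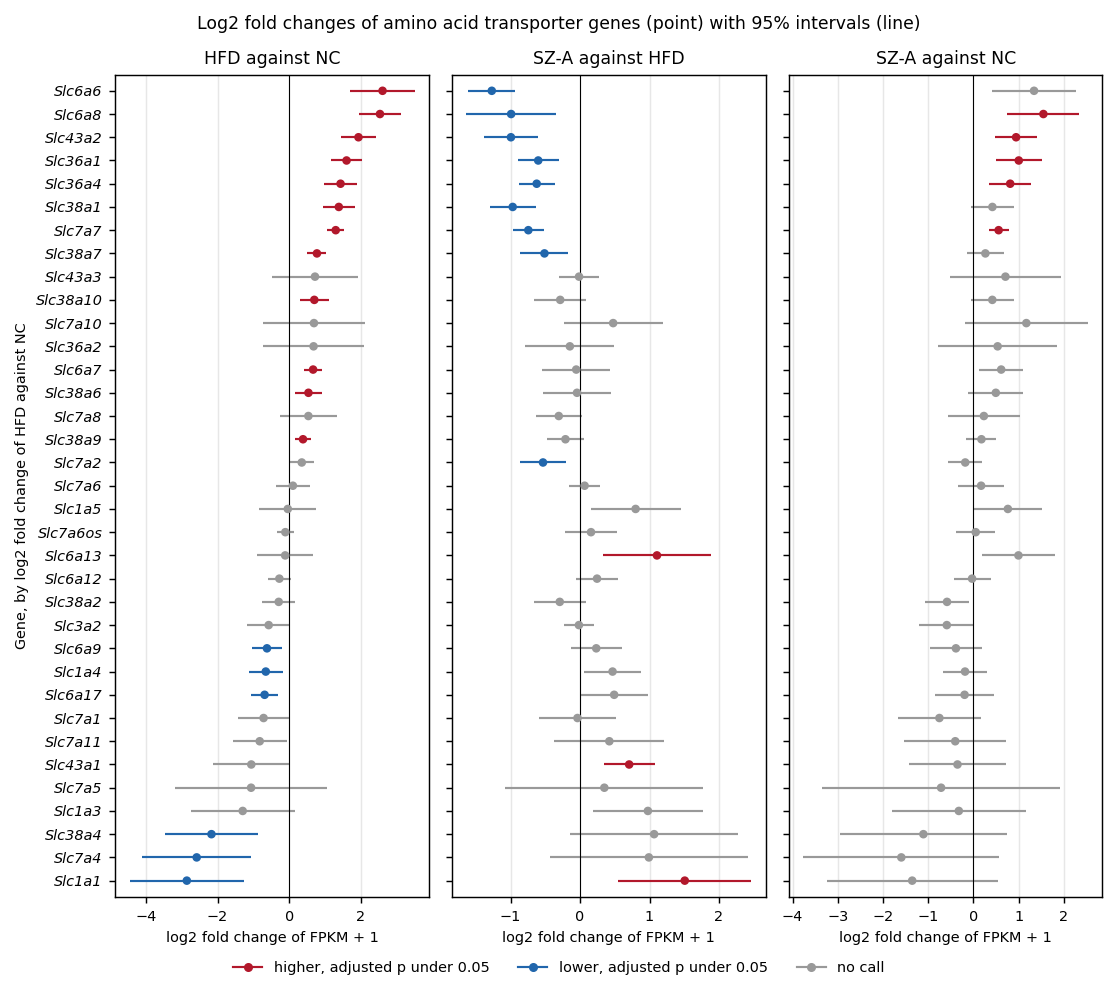
Log2 fold changes of FPKM + 1 for the 35 genes (points) with 95% intervals (lines) in the 3 comparisons, ordered by HFD against NC. Red marks higher and blue lower at an adjusted p under 0.05, and grey marks no call. Slc6a6 lies at the top of the first panel (2.61) and has the lowest value of the second (-1.27), and the wide intervals at the bottom belong to genes that varied between NC mice.

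Genes of neighbouring pathways were counted from lists of known members, to be read against the shares over all genes (21% higher and 20.1% lower in HFD against NC, 9.47% higher and 13.3% lower in SZ-A against HFD). Among 15 other amino acid and peptide transporters, 4 were higher (26.7%) and 3 lower (20%) in HFD than in NC mice. The highest were Slc15a3, a lysosomal exporter of peptides and histidine (log2 fold change 4.10, adjusted p = 1.05e-08), its relative Slc15a4 (1.05, adjusted p = 0.000364) and Mfsd12 (3.32, adjusted p = 1.32e-07). In SZ-A against HFD mice, 4 of the 15 were lower and 1 was higher, with Slc15a3 at -1.50 (adjusted p = 0.00401) and Slc15a4 at -0.63 (adjusted p = 0.0302). Slc15a3 was also higher in SZ-A than in NC mice (2.60, adjusted p = 0.000978).

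Of 30 genes that carry amino acid signals to mTORC1, 11 were higher (36.7%) and 3 lower (10%) in HFD mice, and 5 were lower in SZ-A against HFD mice (16.7%, near the share over all genes). Fnip2, a partner of folliculin, rose by 2.66 (adjusted p = 6.01e-07) and fell by 1.16 with SZ-A (adjusted p = 0.00378). Of 25 genes of the amino acid response, 3 were higher (12%) and 8 lower (32%) in HFD mice, among the latter Cth, which makes cysteine (-3.39, adjusted p = 0.000368), and Sesn2, a leucine sensor (-1.20, adjusted p = 0.00324). In SZ-A against HFD mice 2 of the 25 were higher, Sesn2 (1.06, adjusted p = 0.00895) and Phgdh, the first enzyme of serine synthesis (1.24, adjusted p = 0.0223), and 1 was lower.

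Lists of enzymes that use the carried amino acids did not share 1 direction. Of 13 genes of branched-chain amino acid breakdown, 8 were lower (61.5%) and 1, Bcat1, was higher (1.07, adjusted p = 0.00055). In SZ-A against HFD mice 5 of the 13 were higher (38.5%), led by Bckdhb (1.25, adjusted p = 0.0101), a subunit of the complex that commits these amino acids to breakdown. Of 7 serine and glycine enzymes, 5 were lower in HFD mice (71.4%), among them Amt of the glycine cleavage system (-2.37, adjusted p = 0.000181), and 2 were higher in SZ-A against HFD mice, Cbs (1.23, adjusted p = 0.00653) and Amt (1.25, adjusted p = 0.0203). Of 11 arginine and polyamine enzymes, 2 were higher and 2 lower in HFD mice (18.2% each). With SZ-A against HFD, Gatm was lower (-1.36, adjusted p = 0.000304), and Ass1 (0.90, adjusted p = 0.02) and Nos3 (0.89, adjusted p = 0.0391) were higher. Of 8 glutamate and glutamine enzymes 3 were higher (37.5%) and 1 lower (12.5%) in HFD mice, and 2 were lower with SZ-A, Glud1 (-0.38, adjusted p = 0.0134) and Got1 (-0.60, adjusted p = 0.0382). Of 9 glutathione genes, Gclc was lower in HFD mice (-0.74, adjusted p = 0.00864) and Gpx4 was higher with SZ-A (0.73, adjusted p = 0.0224).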

How the data were processed

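Total RNA of eWAT was purified for poly(A) RNA and sequenced as paired-end reads. The authors mapped them to GRCm38 with HISAT2, counted with featureCounts 1.5.0-p3 (submitters' processing notes) and deposited FPKM per gene. Which annotation release and gene filter they used is not given in the sources used here. The labels hold 6 NC, 7 HFD and 7 SZ-A mice.

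Each comparison was fitted with limma 3.58.1 in R 4.3.3 (lmFit, eBayes with a trend, two-sided) on log2(FPKM + 1), for the mice compared and every gene that averaged 0.1 FPKM or more over them, with Benjamini-Hochberg adjustment over all genes tested. All 35 members passed that filter in each comparison. Fold changes on this scale understate changes of low genes. Counts on genes were recovered from FPKM and exon length, and were whole within 0.01 reads for 95.93% to 96.29% of values under 1000 reads, so voom on them served only as an alternative. The authors used DESeq2, which was not used here, and their threshold is taken from the methods, on the log2 scale, while one passage of their results words it as a plain fold change. The fit was tested on simulated data.

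Given mouse by mouse are members with an adjusted p under 0.05 and an absolute log2 fold change above 1, at most 12 per comparison, and by group means the 5 of highest level, the heavy chains and the light chains. Of other lists, a few genes are named, and these were not always those of smallest adjusted p. Other members were named after their values were seen. The members and lists were chosen with earlier results of these data known. Alternatives were the pseudocount, the filter, scaling by median ratios, a fit over all groups, array weights, voom, a replicate block, a score of epididymis markers (the mean log2 of the 3 measured) and leaving out each mouse. Python 3.11.15 with NumPy 2.4.6, pandas 2.3.3 and matplotlib 3.10.9 made the tables and plots.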

Additional observations from a re-analysis of the deposited data

Results flagged for a closer look

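In 12 of 105 sets of values (a member in a group), a single mouse lay far from the rest by Dixon's test, where chance gives about 1 in 20. NC replicate 6 was high for Slc7a5 (586 FPKM) and Slc7a8 (46.9 FPKM) and low for Slc6a6 (1.55 FPKM). SZ-A replicate 2 was high for Slc7a5 (117 FPKM), Slc7a1 (9.89 FPKM), Slc7a11 (7.38 FPKM) and Slc6a17 (2.92 FPKM) and low for Slc43a1 (1.95 FPKM). SZ-A replicate 5 was high for Slc7a6os (11.5 FPKM), Slc38a6 (8.66 FPKM) and Slc6a7 (3.03 FPKM). SZ-A replicate 6 was high for Slc6a6 (49.0 FPKM). No HFD mouse stood apart in this way.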

How the results depend on the processing

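Counts of calls below are out of 35. With array quality weights, 11 members were lower in HFD than NC (6 in the fit reported), 6 were higher in SZ-A than HFD (3), 9 were higher and 2 lower in SZ-A than NC (5 and 0), and 0 passed the study's threshold in SZ-A against HFD (1). With an epididymis marker score as covariate, 3 were lower in HFD than NC and 0 passed the threshold in SZ-A against HFD or NC, and Slc1a1 (0.96) and Slc38a6 (-0.15) turned direction in HFD against NC. The threshold passed 12 members in HFD against NC with pseudocounts of 0.1 or 0.01 and 11 with voom (7), 2 in SZ-A against HFD with 0.01, and 2 in SZ-A against NC with 0.1, 0.01 or voom (1). With all 3 groups in the fit, 1 was higher in SZ-A than HFD and 0 passed the threshold, and median-ratio scaling also gave 0 there. Leaving out both NC replicate 6 and SZ-A replicate 2, an alternative chosen after seeing the data, gave 0 past the threshold in SZ-A against NC and 4 higher. Leaving out single mice gave 1 to 5 higher in SZ-A than HFD (1 without HFD replicate 1 or 3, 5 without SZ-A replicate 5), 0 to 1 past the threshold, 1 to 6 higher in SZ-A than NC (1 without NC replicate 1 or 2 or SZ-A replicate 6) and 0 to 2 past it. It gave 12 to 13 higher and 4 to 8 lower in HFD than NC, and 7 to 10 lower in SZ-A than HFD. The cause was not tested.

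As for pairing, the labels give a replicate number and state no link between mice that carry the same one. Correlations between such mice ran from -0.41 to 0.584. These mix all differences between mice, so they cannot decide whether mice of the same number shared a batch. With the replicate block, 0 members were higher in SZ-A than NC and 0 passed the threshold there, 11 were higher and 5 lower in HFD than NC, and 2 were higher and 9 lower in SZ-A than HFD.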
